A study of Mus musculus with 8 samples.

Results

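The mTOR complex 1 (mTORC1) core and the machinery that brings it to the lysosome were followed in mouse liver through 10 genes, *Mtor*, *Rptor*, *Rheb*, *Rraga*, *Rragc* and *Lamtor1* to *Lamtor5*. They were taken by gene symbol from the deposited table, as 10 of its 55385 genes, and each symbol matched 1 gene. Levels are given as FPKM, the counts of a gene scaled to the length of its exons and to the total of the mouse. All 10 were expressed well enough to be tested, which needed 4 or more of the 8 mice to reach 0.5 FPKM and left 14340 genes in all. With library sizes scaled by TMM, *Rptor* was the only one of the 10 to pass the test for a change with *Usp39* deletion. It fell by 0.52 (log2 fold change in edgeR's quasi-likelihood test, standard error 0.11, adjusted p = 0.00659), and the other 9 genes did not pass. The calls depended on the scaling, since without it *Rptor* did not pass and 6 of the other genes were called higher. With TMM scaling 11.6% of all tested genes were called lower, and without it 24.6% were called higher.

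mTORC1 is a protein kinase complex that promotes growth and protein synthesis and restrains autophagy when nutrients are plentiful. Amino acids act through heterodimers of Rag GTPases, which the Ragulator complex anchors to the lysosomal membrane and which recruit mTORC1 by binding Raptor, the product of *Rptor*. There the small GTPase Rheb switches the kinase on, and insulin and energy signals reach Rheb through the TSC complex, which in liver ties the pathway to feeding and fasting.

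The study asked how loss of Usp39, a spliceosome component, alters liver lipid handling and autophagy, and liver RNA was sequenced with 1 library per mouse. The 4 *Usp39*-HKO mice came from crossing *Usp39* fl/fl mice, with exon 2 flanked by *loxP* sites, to Albumin-Cre mice on the C57BL/6J background. The paper calls the deletion hepatocyte-specific, and these bulk data do not show which liver cells kept the gene. The 4 controls were littermates that the labels call wild type. All were male, 5 weeks old and fasted for 16 h, and the labels give no other treatment and no batch.

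Counts on genes summed to between 8589636 and 10418450 per mouse. *Usp39* itself was lower. Controls A468, A472, A473 and A475 had 9.35, 10.4, 8.76 and 9.78 FPKM and *Usp39*-HKO A469, A470, A471 and A474 had 8.37, 8.63, 8.70 and 8.07, all below the controls. It fell by 0.41 on the log2 scale in edgeR (standard error 0.11 and adjusted p = 0.0212, but 0.0547 without A475 and 0.0615 without A474). It did not pass without scaling (−0.18, edgeR adjusted p = 0.247). Nor did it pass in limma on FPKM, also without TMM scaling (−0.16 and −0.18, limma adjusted p = 0.168 and 0.164 at pseudocounts of 1 and 0.1). A count over all exons does not check the deleted exon. Hepatocyte markers dominated, with summed FPKM of 5 genes between 12280 and 16190 in each liver. Markers of other cells moved with genotype. Summed FPKM went from between 26.4 and 28.7 to between 64.1 and 285.2 for 5 biliary markers, of which 4 of the 4 tested were higher. It went from between 228.2 and 281.3 to between 390.9 and 565.8 for 5 Kupffer cell and macrophage markers (4 of 5 higher), from between 56.1 and 64.3 to between 92.98 and 175.7 for 5 stellate cell markers (4 of 5 higher), and from between 1.81 and 3.93 to between 8.997 and 18.4 for 3 proliferation markers (3 of 3 higher). Of the tested markers of other lists, 2 of 5 hepatocyte and 2 of 5 endothelial markers were lower and 1 of 3 lymphocyte markers was higher. No marker of these lists was at 0 in every mouse. Their part in the results below was not tested, and in such bulk RNA fewer cells of a type and less RNA per cell cannot be told apart. Control A475 stood apart, with 494.3 summed FPKM of 5 pancreas acinar markers against at most 2.45 in any other liver, so values without it, singly or as a range, are given for the 10 genes and wherever a call named here ended.

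Per length of exon, control livers held most *Rraga* and least *Lamtor3*. The order of mean control FPKM was *Rraga* at 33.9, *Lamtor5* at 24.8, *Lamtor2* at 24.04, *Lamtor4* at 19.4, *Rragc* at 17.7, *Lamtor1* at 12.2, *Mtor* at 10.7, *Rheb* at 6.41, *Rptor* at 5.72 and *Lamtor3* at 4.49. The ranges of the 4 controls overlapped between neighbours from *Lamtor5* down to *Rragc*, and between *Lamtor1* and *Mtor*. The other neighbours did not overlap, although *Rheb* and *Rptor* were separated only by 6.04 against 6.01. The 5 Ragulator subunits, which form 1 complex in equal numbers, thus spanned from 4.49 to 24.8 FPKM. This measure divides by all annotated exon bases, 4151 for *Lamtor3* and 884 for *Lamtor5*. Their counts in controls were closer, 159 to 191 and 197 to 230. Whether all these bases are used in liver was not tested, so the span does not establish unequal transcript numbers.

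**Figure D1:**
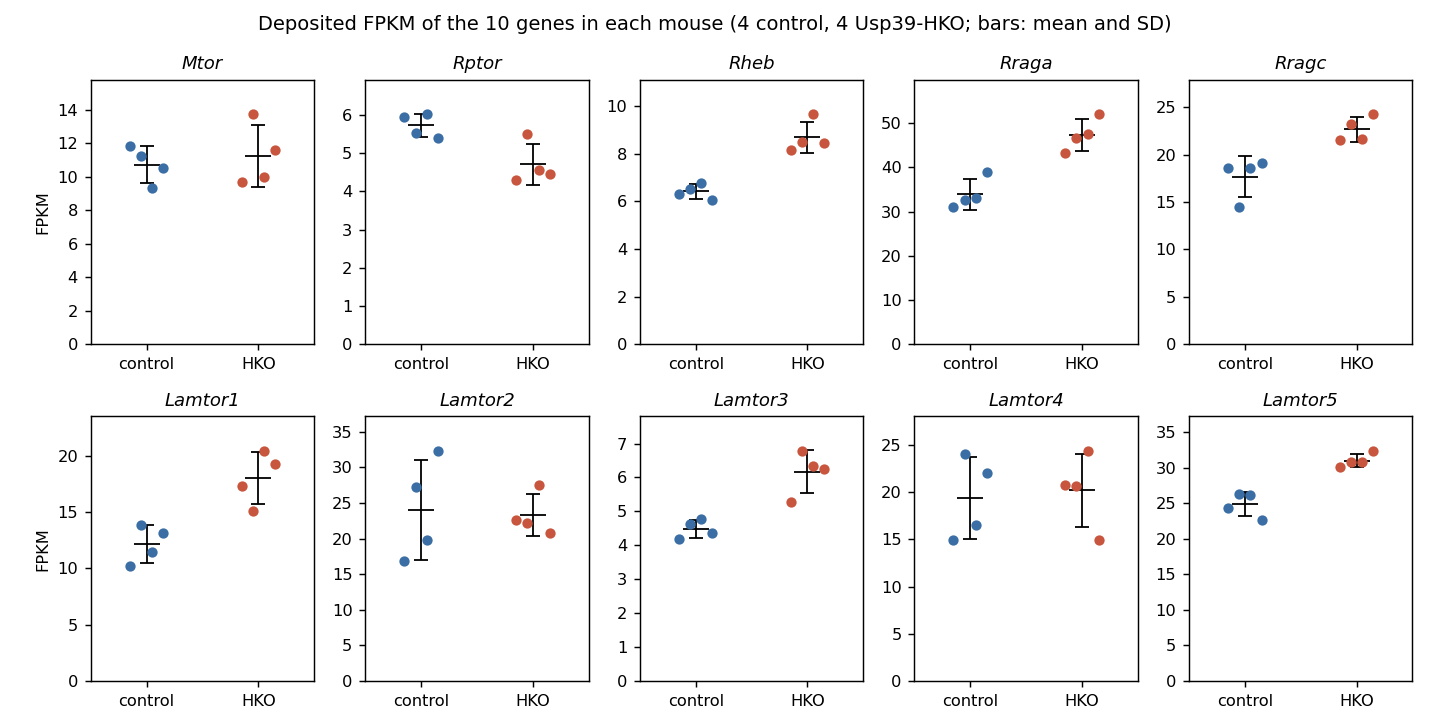
Deposited FPKM (vertical axes, from 0) of the 10 genes in each of 4 control (blue) and 4 *Usp39*-HKO (red) livers, with points for mice and bars for mean and SD. On this unscaled measure *Rheb*, *Rraga*, *Rragc*, *Lamtor1*, *Lamtor3* and *Lamtor5* lie higher without overlap, as did 23.9% of all tested genes. *Rptor* overlaps through 1 *Usp39*-HKO liver.

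*Rptor* encodes Raptor, the scaffold that defines mTORC1 and selects its substrates. Its gene (ENSMUSG00000025583) lies on the plus strand of chromosome 11 of GRCm38 from 119602905 to 119899576, and 0.624% of its exon bases also lie in the antisense gene *Rptoros*. Controls A468, A472, A473 and A475 had 5.95, 5.52, 6.01 and 5.401 FPKM, and *Usp39*-HKO A469, A470, A471 and A474 had 4.30, 5.49, 4.56 and 4.46. A single *Usp39*-HKO liver, A470, reached into the control range, and the other 3 were below every control (two-sided exact permutation test on FPKM, p = 0.0571). After division by the TMM factor of each mouse, a scaling that assumes that most genes do not change, controls had 6.53, 5.99, 6.60 and 5.74 and *Usp39*-HKO livers 4.25, 5.06, 4.29 and 3.75. All 4 *Usp39*-HKO livers were then below all controls (two-sided exact permutation p = 0.0286, the smallest that 4 against 4 allow), and 24.9% of all tested genes were likewise apart, in either direction. The log2 fold change of −0.52 corresponds to a level 0.699 times that of controls, and without A475 it was −0.55 (edgeR adjusted p = 0.0170). The call did not hold without scaling, where the change was −0.28 with an edgeR adjusted p of 0.0656.

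*Mtor*, the kinase itself, lies on chromosome 4 (148448611 to 148557683, plus strand, 56 merged exons) and did not pass the test. It had 11.9, 11.2, 9.33 and 10.5 FPKM in controls A468, A472, A473 and A475 and 9.71, 13.7, 10.02 and 11.6 in *Usp39*-HKO A469, A470, A471 and A474. The groups overlapped, with the highest value in A470, the *Usp39*-HKO liver that was also highest for *Rptor*. The log2 fold change was −0.17 (standard error 0.12, edgeR adjusted p = 0.357), with an interval of 1.96 standard errors from −0.41 to 0.071, and it turned to 0.072 without scaling. Within a mouse, which cancels library scaling, the ratio of *Mtor* to *Rptor* FPKM was 1.88 ± 0.22 (SD, n = 4) in controls and 2.39 ± 0.19 (SD, n = 4) in *Usp39*-HKO livers. All 4 *Usp39*-HKO ratios, from 2.197 to 2.602, were above all control ratios, from 1.55 to 2.03. The denominator is *Rptor*, itself called lower in these livers, so the ratio is not separate evidence for that fall. It received no test, and how often other pairs of genes separate this way was not counted.

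*Rheb*, the GTPase that activates the kinase (chromosome 5, 24802823 to 24842624, minus strand), had 6.31, 6.52, 6.79 and 6.04 FPKM in controls A468, A472, A473 and A475. In *Usp39*-HKO A469, A470, A471 and A474 it had 8.17, 8.47, 9.65 and 8.46. Every *Usp39*-HKO liver was above every control on this measure, which was also true of 23.9% of all tested genes. On the scaled measure the groups overlapped, since *Usp39*-HKO A474, at 7.11, lay below control A473, at 7.45. The log2 fold change was 0.21 (standard error 0.10, edgeR adjusted p = 0.171).

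Of the Rag GTPases, *Rraga* encodes RagA and *Rragc* encodes RagC, and an active pair joins RagA or RagB with RagC or RagD. *Rraga*, a gene of 1 exon of 1618 bases (chromosome 4, 86575668 to 86577285, plus strand), had 31.1, 32.5, 33.0 and 39.0 FPKM in controls A468, A472, A473 and A475 and 43.2, 46.7, 47.5 and 52.0 in *Usp39*-HKO A469, A470, A471 and A474. The groups did not overlap, and control A475 came closest to the *Usp39*-HKO livers. After TMM scaling *Rraga* was the only member to stay above every control, at 36.8 ± 3.23 (SD, n = 4) in controls and 43.5 ± 0.88 (SD, n = 4) in *Usp39*-HKO livers (two-sided exact permutation p = 0.0286), a separation upwards that 11.8% of all tested genes showed. In the fit across all genes its log2 fold change of 0.25 (standard error 0.09) did not pass (edgeR adjusted p = 0.0754), and TMMwsp, a related scaling, put it at 0.28 with an edgeR adjusted p of 0.0498.

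*Rragc* (chromosome 4, 123917446 to 123936997, plus strand) had 18.6, 14.5, 18.6 and 19.1 FPKM in controls A468, A472, A473 and A475 and 21.6, 23.2, 21.6 and 24.3 in *Usp39*-HKO A469, A470, A471 and A474. Control A472 lay below the other 3 controls, and all *Usp39*-HKO livers lay above them. The log2 fold change was 0.12 (standard error 0.10, edgeR adjusted p = 0.438), and 7.90% of the exon bases overlap *4930535I16Rik* on the other strand.

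The Rag genes were expressed very unequally. *Rragb*, the paralog of *Rraga*, had between 2 and 9 counts per liver, a mean of 0.454% of the FPKM of *Rraga* in control livers and 0.447% in those of *Usp39*-HKO mice, and was not tested. *Rragd*, the paralog of *Rragc* and a known target of the Tfeb family of transcription factors, had 0.547, 0.936, 0.653 and 0.408 FPKM in controls A468, A472, A473 and A475. It had 1.89, 3.45, 3.53 and 5.995 in *Usp39*-HKO A469, A470, A471 and A474. Each *Usp39*-HKO liver was above every control, and the log2 fold change was 2.28 (standard error 0.32, edgeR adjusted p = 0.00117). Relative to *Rragc* in the same mouse, *Rragd* FPKM went from 3.76% ± 1.89 (SD, n = 4) in controls to 16.2% ± 6.57 (SD, n = 4). The 4 *Usp39*-HKO livers had the same order for *Rragd* as for the summed biliary markers, which were 64.1, 138.9, 148.6 and 285.2 FPKM in A469, A470, A471 and A474, and as for the summed Kupffer cell and macrophage markers, which were 390.9, 400.1, 435.2 and 565.8. Summed stellate cell markers differed from this order only in A470 and A471, with 159.6 FPKM in A470 above 130.3 in A471. *Rragd* was nearly equal in these livers, at 3.45 and 3.53 FPKM from 182 and 174 counts, so it does not tell these orders apart. How many tested genes had either order was not counted. The part of these cells in the *Rragd* values was not tested.

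Ragulator is built from the products of *Lamtor1*, which carries the lipid anchor, and of *Lamtor2* to *Lamtor5*, which form paired roadblock folds. None of the 5 passed the test. *Lamtor1* (chromosome 7, 101905904 to 101926675, plus strand) had 10.2, 13.8, 11.5 and 13.2 FPKM in controls A468, A472, A473 and A475 and 17.3, 15.1, 20.4 and 19.3 in *Usp39*-HKO A469, A470, A471 and A474. The groups did not overlap before scaling, and did after it, with A470 the lowest *Usp39*-HKO value. Its log2 fold change of 0.33 (standard error 0.13, edgeR adjusted p = 0.0817) was the highest of the 10 genes, with an interval of 1.96 standard errors from 0.084 to 0.58, and without A470 it was 0.41 with an edgeR adjusted p of 0.0405. Of the *Lamtor1* exon bases, 18.7% overlap *Lrrc51* on the other strand, and the library kit named in the labels is not stated to mark strand. The genes *Gm5510* and *Gm13077*, near-identical to *Lamtor1*, drew 28 counts each over the 8 mice.

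*Lamtor3* and *Lamtor5* had narrow ranges and *Lamtor2* and *Lamtor4* wide ones. *Lamtor3* (chromosome 3, 137918506 to 137928900, plus strand) ranged from 4.17 to 4.77 FPKM in controls and from 5.28 to 6.78 in *Usp39*-HKO livers (log2 fold change 0.22, standard error 0.11, edgeR adjusted p = 0.179). *Lamtor5* (chromosome 3, 107278858 to 107284082, plus strand) ranged from 22.7 to 26.2 in controls and from 30.03 to 32.3 in *Usp39*-HKO livers (log2 fold change 0.085, standard error 0.10, edgeR adjusted p = 0.597). Both were apart on deposited FPKM and overlapped after scaling, and their near-identical genes *Gm5900* and *Gm15190* drew 18 and 10 counts over the 8 mice.

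*Lamtor2* (chromosome 3, 88549819 to 88553074, minus strand) had 16.8, 27.2, 19.8 and 32.3 FPKM in controls A468, A472, A473 and A475 and 22.6, 22.1, 27.5 and 20.8 in *Usp39*-HKO A469, A470, A471 and A474. The controls themselves split, with A475 above every *Usp39*-HKO liver, A472 above all of them but A471, and A468 and A473 below all of them. The log2 fold change was −0.27 (standard error 0.19, edgeR adjusted p = 0.337), and −0.11 without A475. *Lamtor4* (chromosome 5, 138255482 to 138259398, plus strand) showed the same split of controls, 14.97 and 16.5 in A468 and A473 against 24.02 and 22.04 in A472 and A475, with *Usp39*-HKO livers from 14.99 to 24.4 (log2 fold change −0.16, standard error 0.19, edgeR adjusted p = 0.590, and 0.060 without scaling). *Lamtor1* had that order of controls too, so 3 of the 10 genes did, as did 21.6% of all tested genes.

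The 5 subunits were also set against *Mtor* and *Rptor* within each mouse. Mean log2 FPKM of *Lamtor1* to *Lamtor5* minus that of *Mtor* and *Rptor* was 0.527, 1.04, 0.862 and 1.05 in controls A468, A472, A473 and A475, and 1.37, 0.974, 1.51 and 1.197 in *Usp39*-HKO A469, A470, A471 and A474. Only A470 fell within the control range. Group means were 0.87 ± 0.24 (SD, n = 4) and 1.26 ± 0.23 (SD, n = 4), a difference of 0.39 that received no test because it sums over chosen genes. *Rptor*, itself called lower, is part of the denominator, and of the 5 subunits 3 had a positive and 2 a negative log2 fold change.

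Across the 10 genes, 1 was called lower and 0 higher at an adjusted p under 0.05, against 11.6% of all tested genes called lower, 10.9% called higher and 22.5% called in either direction. At an unadjusted p under 0.05, 3 of the 10 passed, *Rptor* lower and *Rraga* and *Lamtor1* higher, against 35.3% of all tested genes, and DESeq2 also called only *Rptor*. Without A475 *Rptor* was again the only call, and the log2 fold changes of the other 9 ran from −0.19 for *Mtor* to 0.36 for *Lamtor1*, with edgeR adjusted p from 0.0575 for *Rraga* to 0.870 for *Lamtor5*. The median log2 fold change of the 10 was 0.10, beside −0.0015 over all tested genes. Without TMM factors the median of all genes rose to 0.24, and 6 members were called higher, *Rheb* at 0.44, *Rraga* at 0.48, *Rragc* at 0.36, *Lamtor1* at 0.57, *Lamtor3* at 0.46 and *Lamtor5* at 0.32. Against that, 24.6% of all genes were called higher on the same unscaled measure and 4.85% lower.

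**Figure D2:**
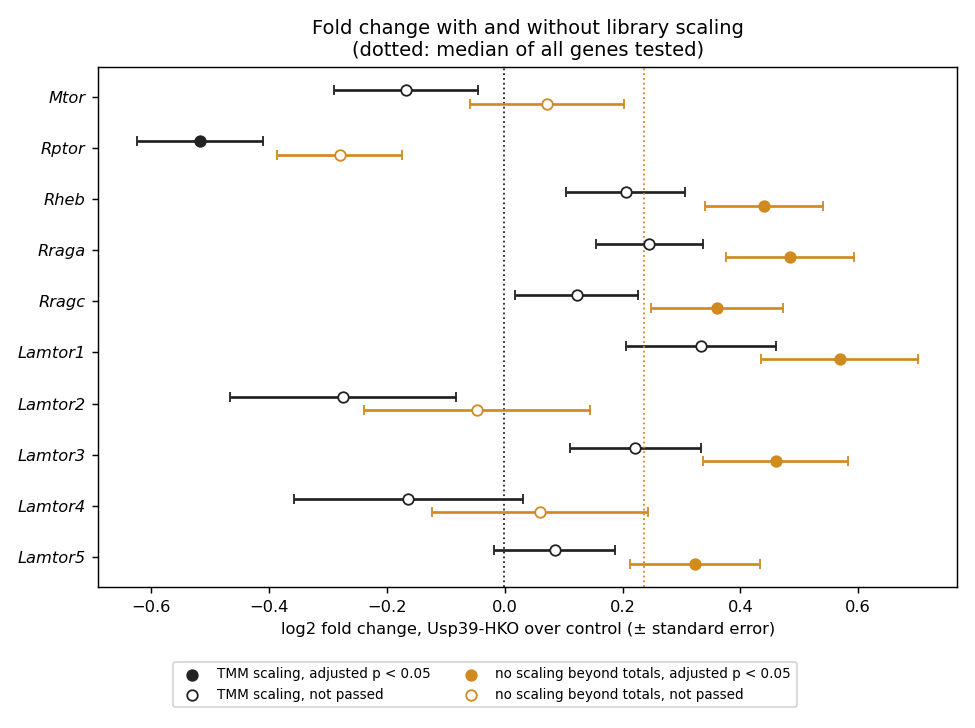
Change of the 10 genes in *Usp39*-HKO livers (horizontal axis, log2 fold change ± standard error) from edgeR with TMM scaling (black) and without it (orange), with filled points for an adjusted p under 0.05 and dotted lines at the median of all tested genes. All 10 genes move right without scaling, by about the shift of the median gene to 0.24, and *Rptor* is the only filled black point.

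Promoter sequences were available for 9 of the 10 genes in the RefSeq table (GRCm38.p6), without *Lamtor3*. The letters CACGTG, an E-box that is read the same on both strands and is the core of the motif bound by Tfeb and its relatives, occurred within 250 bases before the start in 4 of the 9, and in 6.02% of 32851 promoters. They are shown because these factors are themselves mTORC1 targets. Capitals mark the E-box, and each stretch is written 5′ to 3′ on the strand of its gene, for *Rragc* chr4:123917286-123917361 (plus), *Rheb* chr5:24842417-24842492 (minus), *Lamtor4* chr5:138255327-138255418 (plus) and *Lamtor1* chr7:101905734-101905809 (plus).
Rragc: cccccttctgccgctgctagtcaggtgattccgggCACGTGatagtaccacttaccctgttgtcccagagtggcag
Rheb: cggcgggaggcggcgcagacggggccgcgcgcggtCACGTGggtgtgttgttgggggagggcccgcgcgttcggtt
Lamtor4: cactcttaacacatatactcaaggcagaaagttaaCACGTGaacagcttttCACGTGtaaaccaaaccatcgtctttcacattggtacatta
Lamtor1: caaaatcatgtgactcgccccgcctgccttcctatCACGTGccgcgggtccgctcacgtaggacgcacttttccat
Counted from the RefSeq start, the first base of the E-box lay at −112 in *Rragc*, −96 in *Rheb*, −120 and −104 in *Lamtor4* and −68 in *Lamtor1*. The gene coordinates given above are from GENCODE vM21, and its starts can differ from those of RefSeq. In GENCODE *Rheb*, on the minus strand, begins at 24842624. The *Rheb* stretch therefore lies inside the gene by those coordinates, and upstream only of the RefSeq start. The longer GTCACGTG, which contains the E-box, was found in *Rheb* alone of the 9 and in 1.85% of all promoters. Of the other motifs searched on both strands, CCGGAAG was in *Mtor* and *Rraga* (6.91% of all promoters) and TCTCGCGA in *Rraga* (0.858%). None of these letters was found in the windows of *Rptor*, *Lamtor2* and *Lamtor5*. The log2 fold changes of the 4 genes with an E-box were 0.12, 0.21, −0.16 and 0.33, and none passed the test.

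Among the partners of mTOR, 11 of 12 genes were tested, 2 of which were higher and 2 lower, with a median log2 fold change of 0.02. These calls were 36.4% of the list, beside 22.5% of all tested genes, of which 10.9% were higher and 11.6% lower. This list and those that follow were chosen with earlier results of these data known. A share of calls above that of all tested genes may thus come from the choice and is a description. Without scaling 3 partners were higher and 0 lower. In the lists that follow, each call that ended without TMM scaling has its unscaled value beside it. Each of these also ended in both limma fits, which likewise ran without TMM factors and so are not a separate check on scaling. Besides *Rragd*, *Mlst8*, the small subunit bound to the kinase in both mTOR complexes, went from 1.33, 1.32, 1.44 and 1.08 FPKM in controls A468, A472, A473 and A475 to 2.37, 2.19, 2.06 and 2.21 in *Usp39*-HKO A469, A470, A471 and A474. The groups lay well apart (log2 fold change 0.54, standard error 0.16, edgeR adjusted p = 0.0354). Leaving out any single mouse lifted the edgeR adjusted p to between 0.0519 and 0.107, dropping the filter on low values lifted it to 0.0932, and 22.5% of *Mlst8* exon bases overlap *Bricd5* on the other strand.
*Deptor*, an inhibitory partner of both complexes, had 40.3, 30.4, 38.5 and 34.7 FPKM in controls A468, A472, A473 and A475 and 19.6, 33.8, 30.9 and 26.5 in *Usp39*-HKO A469, A470, A471 and A474. The groups overlapped before scaling and not after it (log2 fold change −0.62, standard error 0.16, edgeR adjusted p = 0.0199), and the edgeR adjusted p was 0.0592, 0.0626 and 0.0553 without A468, A473 or A474, and 0.103 without scaling (log2 fold change −0.38). *Mapkap1*, a subunit of mTOR complex 2, fell by 0.43 on that scale (edgeR adjusted p = 0.0199, but 0.0585 without A468 and 0.0667 without A473). It did not pass without scaling (−0.19, edgeR adjusted p = 0.293) or at a mean FPKM of at least 5 (edgeR adjusted p = 0.0509). *Akt1s1*, the Raptor-bound inhibitor, had a log2 fold change of −0.02 (edgeR adjusted p = 0.942) and *Rictor*, the scaffold of complex 2, of 0.02 (edgeR adjusted p = 0.938), each with a sign that depended on the setting.

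Of the 24 genes of the amino acid branch, all tested, 0 were higher and 2 lower, with a median log2 fold change of −0.13. Calls were thus 8.33% of the list, beside 22.5% of all tested genes, and without scaling 3 were higher and 0 lower. *Kptn*, which helps to hold the inhibitory GATOR1 complex at the lysosome, fell by 0.54 (edgeR adjusted p = 0.0237). In *Kptn* the controls ranged from 3.38 to 4.63 FPKM and the *Usp39*-HKO livers from 2.84 to 3.41, so that they met at the edge. The edgeR adjusted p of *Kptn* rose to 0.0857 without A475, 0.0664 without A474, 0.0639 without A473 and 0.0525 without A471, and to 0.152 without scaling (−0.31). The GATOR1 subunits *Depdc5* (log2 fold change −0.37, edgeR adjusted p = 0.0527) and *Nprl2* (−0.29, 0.238), the RagC regulator *Flcn* (−0.17, 0.536) and the lysosomal arginine sensor *Slc38a9* (−0.27, 0.228) did not pass.

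In the growth factor and energy branch, 17 of 18 genes were tested, 1 was higher and 3 were lower, with a median log2 fold change of −0.26. Calls were 23.5% of this list, beside 22.5% of all tested genes, and without scaling 4 were higher and 1 lower. *Ddit4l*, a relative of the stress-induced mTORC1 inhibitor *Ddit4*, had 0.262, 0.173, 0.319 and 0.329 FPKM in controls A468, A472, A473 and A475 and 2.33, 2.89, 5.64 and 3.83 in *Usp39*-HKO A469, A470, A471 and A474. The *Usp39*-HKO livers were far above the controls, with a fitted level 11.4 times that of controls (log2 fold change 3.51, standard error 0.34, edgeR adjusted p = 0.000243) from between 5 and 157 counts per liver. *Ddit4* itself varied widely, from 9.81 to 17.4 FPKM in controls and from 9.95 to 30.4 in *Usp39*-HKO livers, and did not pass (log2 fold change 0.45, edgeR adjusted p = 0.310).
*Insr*, the insulin receptor, had 24.3, 18.6, 25.2 and 23.1 FPKM in controls A468, A472, A473 and A475 and 15.6, 18.3, 13.6 and 16.3 in *Usp39*-HKO A469, A470, A471 and A474. All *Usp39*-HKO livers were below all controls, with A472 and A470 nearly meeting, and *Insr* fell by 0.75 (standard error 0.13, edgeR adjusted p = 0.00313). *Tsc2*, the GTPase-activating subunit that turns Rheb off, fell by 0.42 (edgeR adjusted p = 0.0168, but 0.0566 without A475, and 0.313 without scaling, at −0.18), while 7.20% of its exon bases overlap *Pkd1* on the other strand. *Akt2*, the main Akt of insulin signaling in liver, fell by 0.33 (edgeR adjusted p = 0.0265). Its edgeR adjusted p was between 0.0519 and 0.0754 without A472, A473, A475, A471 or A474, and 0.452 without scaling (log2 fold change −0.099), and the near-identical *Akt2-ps* drew 345 counts over the 8 mice. *Tsc1* did not pass (log2 fold change −0.30, edgeR adjusted p = 0.0541).

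Of 17 genes for mTORC1 targets and readouts, all tested, 1 was higher and 6 were lower, and the median log2 fold change was −0.34. Calls were 41.2% of this list, beside 22.5% of all tested genes, of which 11.6% were lower. This list too was chosen with earlier results known, so its share is a description. Without scaling 4 were higher and 2 lower, with a median of −0.11 beside 0.24 over all tested genes. *Pdcd4*, an inhibitor of translation that is degraded on mTORC1 signaling, had 26.6, 19.8, 24.9 and 23.2 FPKM in controls A468, A472, A473 and A475 and 16.3, 15.5, 13.5 and 16.7 in *Usp39*-HKO A469, A470, A471 and A474. The groups did not overlap (log2 fold change −0.84, standard error 0.12, edgeR adjusted p = 0.00119). *Eif4ebp2*, a translation repressor that mTORC1 phosphorylates, had 54.0, 56.2, 57.1 and 60.1 FPKM in controls A468, A472, A473 and A475 and 41.1, 49.96, 47.9 and 45.96 in *Usp39*-HKO A469, A470, A471 and A474.
The *Eif4ebp2* groups were apart as well (log2 fold change −0.53, standard error 0.10, edgeR adjusted p = 0.00458, and −0.30 without scaling, where the edgeR adjusted p was 0.0498), whereas its relative *Eif4ebp1* did not pass (−0.15, edgeR adjusted p = 0.584). *Rps6kb1*, the S6 kinase gene, fell by 0.43 (edgeR adjusted p = 0.0107, but 0.202 without scaling, at −0.19). *Ulk1*, the autophagy-initiating kinase that mTORC1 inhibits, fell by 0.41 (edgeR adjusted p = 0.0171, but 0.0600 without A473, 0.0570 without A475 and 0.197 without scaling, at −0.18). *Tfeb*, the transcription factor of lysosomal genes, fell by 0.44 (edgeR adjusted p = 0.0381), a call that held without A472 or A469 but not without any other single mouse (0.0526 to 0.1201), without a filter (0.0789), with TMMwsp (0.0512) or without scaling (0.323, at −0.20). *Larp1*, a repressor of ribosomal protein mRNA translation, fell by 0.34 (edgeR adjusted p = 0.0387), a call that held without A469 but not without any other single mouse (0.0543 to 0.0996). It was also lost at a mean FPKM of at least 5 (0.0686), with no filter (0.0618), with TMMwsp (0.0588) and without scaling (0.412, at −0.11).
*Grb10*, an adaptor that mTORC1 stabilizes and that dampens insulin signaling, was the gene that rose, from 0.995, 1.05, 1.18 and 1.36 FPKM in controls A468, A472, A473 and A475 to 2.35, 2.69, 2.21 and 4.96 in *Usp39*-HKO A469, A470, A471 and A474. The groups were apart, and A474, the liver with the most biliary, stellate and macrophage marker RNA, stood above the other 3 (log2 fold change 1.153, standard error 0.21, edgeR adjusted p = 0.00401). The other 3 lay close together in *Grb10*, at 2.35, 2.69 and 2.21 FPKM in A469, A470 and A471. In these livers summed biliary markers were 64.1, 138.9 and 148.6 FPKM and macrophage markers 390.9, 400.1 and 435.2. Stellate cell markers were 92.98, 159.6 and 130.3 FPKM, and proliferation markers 16.3, 12.6 and 8.997. Proliferation markers were also highest in A474, at 18.4 FPKM. The part of the cells behind these markers in *Grb10* was not tested.

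**Figure D3:**
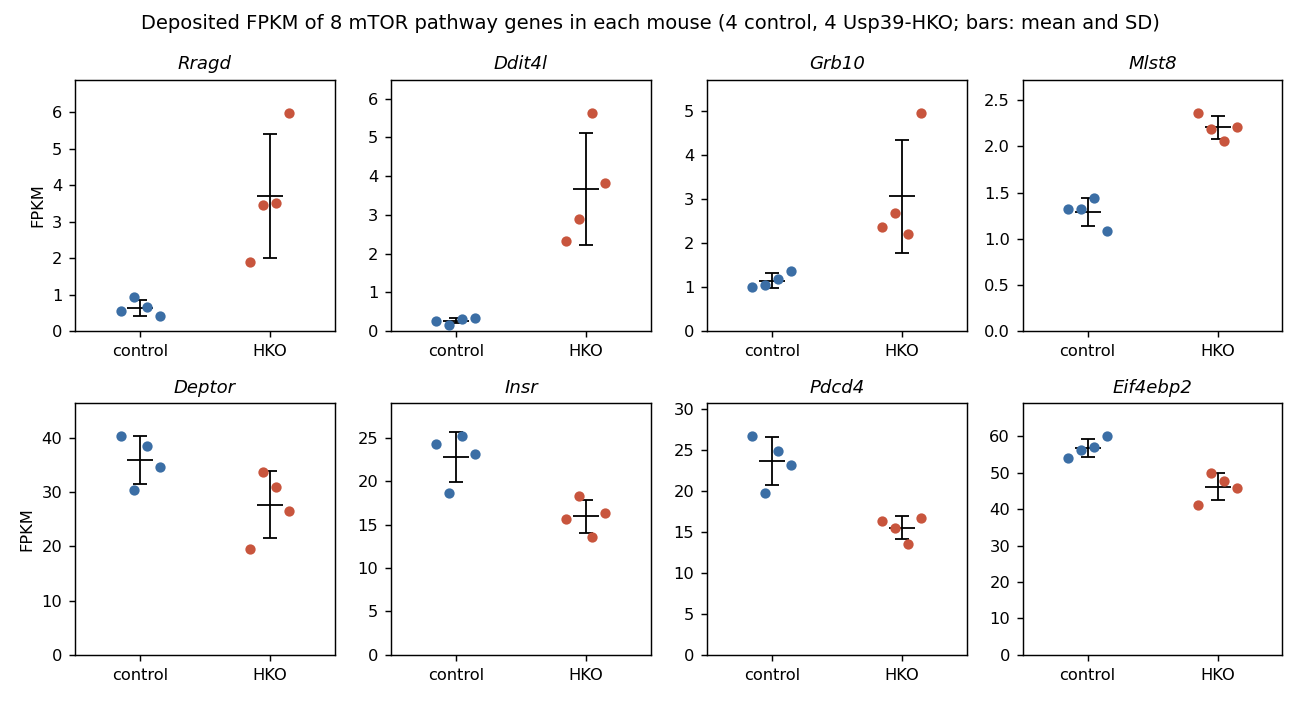
Deposited FPKM (vertical axes, from 0) of 8 mTOR pathway genes in each of 4 control (blue) and 4 *Usp39*-HKO (red) livers, with points for mice and bars for mean and SD. *Rragd*, *Ddit4l*, *Grb10* and *Mlst8* lie higher and *Insr*, *Pdcd4* and *Eif4ebp2* lower in *Usp39*-HKO livers without overlap, and *Deptor* overlaps. All 8 are called genes, so separation was partly given by the choice. On this unscaled measure 23.9% of all tested genes were apart upwards, and the share apart downwards was not counted.

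Over the 4 lists, 69 of 71 genes were tested and 24.6% passed, 4 higher and 13 lower, near the 22.5% of all tested genes. The split between directions depended on scaling, with 14 higher and 3 lower without TMM factors. The number of list genes called lower also fell with a mouse left out, to 6 without A475 or A473 and 7 without A474. Over all tested genes the number called lower fell too, from 1664 to 1023 without A475, 949 without A473 and 1063 without A474. Among the genes of the lists with alternatives computed, the calls that held in all of those in which the gene was tested were *Rragd*, *Ddit4l*, *Grb10*, *Insr*, *Pdcd4* and *Eif4ebp2*. *Rptor* and *Rps6kb1* were called whichever mouse was left out, but not without scaling.

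**Figure D4:**
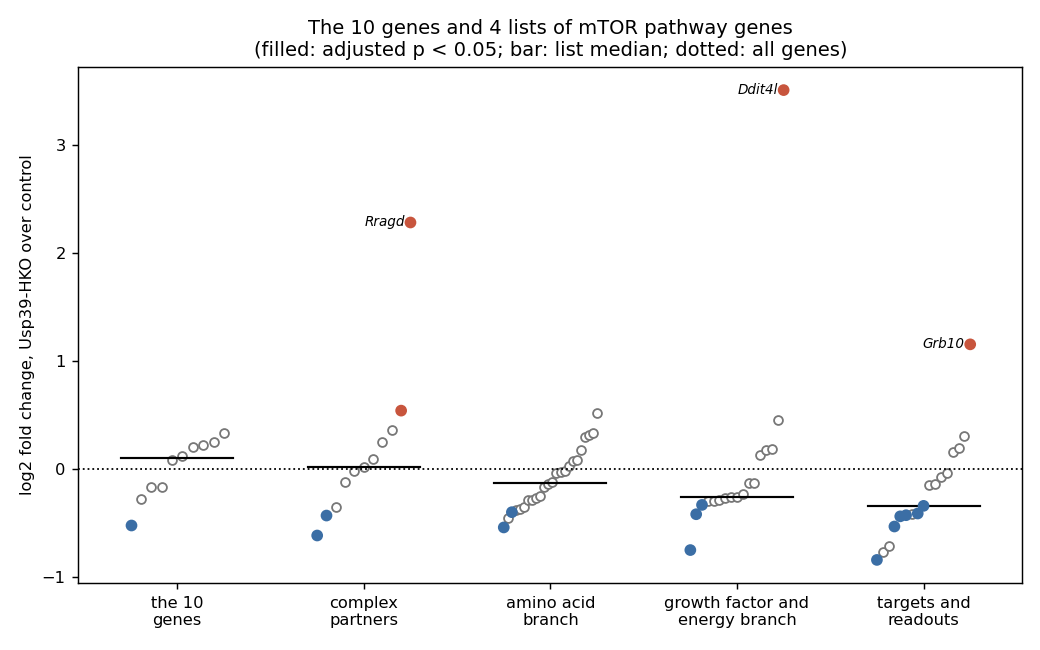
Change in *Usp39*-HKO livers (vertical axis, log2 fold change from edgeR with TMM scaling) for the 10 genes and the tested genes of 4 lists, with filled points for an adjusted p under 0.05 (red higher, blue lower), bars at list medians and a dotted line at the median of all tested genes. List medians run from 0.10 for the 10 genes to −0.34 for targets and readouts, and *Ddit4l*, *Rragd* and *Grb10* stand above the rest.

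By pattern over the 8 livers, the genes most like *Rptor* were *1810014B01Rik*, *Map3k5* and *Lrig1*, with a root mean square difference of 0.0568, 0.0574 and 0.0577 between centred log2 levels. They were chosen for this likeness, so a fall near that of *Rptor* was given by the choice, and their log2 fold changes are a description. These were −0.57 for *Map3k5*, a stress-activated kinase, −0.48 for *Lrig1*, a negative regulator of growth factor receptors, and −0.52 for *1810014B01Rik*. The last had 37 to 52 counts per liver. Its near-identical gene *1190007I07Rik* drew 635 counts over the 8 mice, and 15.65% of its own exon bases overlap *Hsp90b1* on the other strand.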

How the data were processed

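The authors trimmed reads (Trim Galore 0.6.1 and FastQC 0.11.9 are in the submitters' processing notes), aligned them with HISAT2 to mm10 and used featureCounts for the raw counts per gene that they deposited. FPKM were deposited too, computed by the authors from counts, exon length and the total of the mouse. Annotation release, strandedness and multi-mapping are not given in the sources used here. Columns of the authors' DESeq2 comparison (mean normalized signal, log2 fold change, standard error and Wald statistic as scores, unadjusted and adjusted p-values) were deposited and not used.

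Of 55699 entries, 314 repeated a gene with identical values and were read once. Genes that reached 0.5 FPKM in 4 or more of the 8 mice were tested with edgeR 4.0.16 (quasi-likelihood, two-sided; TMM factors of 0.911 to 0.940 for controls, 1.01 to 1.19 for *Usp39*-HKO mice) with Benjamini-Hochberg adjustment over all 14340. Standard errors were derived from each log2 fold change with its F value. Exact permutation tests ran over the 70 assignments of mice. Alternatives were other scalings, filters, DESeq2 1.42.0, limma 3.58.1 on log2(FPKM + 1) and log2(FPKM + 0.1), each mouse left out, and a length offset chosen after seeing the data. Both limma fits used FPKM without TMM factors. The fit was tested on simulated data. Coordinates are from GENCODE vM21, near-identical genes from BLAST+ 2.17.0+ (at least 150 bases at 97%). Named were the 10 genes, *Usp39*, up to 6 called genes per list by smallest p (*Larp1* falls outside this and was added after its values were seen), 16 genes fixed by name and the 3 most like *Rptor*, with 1 gene that is counted in its list and not reported here. Members, lists and motifs were chosen with earlier results of these data known. Totals were 8589636 to 10418450 counts per mouse, where 3 counts are 0.288 to 0.349 CPM, a floor that covers counting error only, since reads without molecular identifiers are not independent molecules.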

Additional observations from a re-analysis of the deposited data

Results flagged for a closer look

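In groups of 4 livers, a value was taken as far from the others when its gap to the nearest, as a share of the range of the group, exceeded Dixon's 95% critical value, which chance gives in about 1 in 20 groups, and 5 of 98 groups met it. *Rragc* was 14.5 FPKM in control A472 and 18.6 to 19.1 in the other controls. *Rragb* was 0.420 FPKM in *Usp39*-HKO A474 and 0.137 to 0.174 in the other *Usp39*-HKO livers, from at most 9 counts. *Lrig1*, named for its likeness to *Rptor*, was 6.13 FPKM in *Usp39*-HKO A470 and 5.19 to 5.33 in the others. Summed endothelial markers were 84.99 FPKM in *Usp39*-HKO A469 and 81.6 to 81.98 in the others. Summed pancreas acinar markers were 494.3 FPKM in control A475 and 0.405 to 0.687 in the other controls, and *Rptor* was called without A475.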

How the results depend on the processing

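The fall of *Rptor* kept its direction under all 17 alternatives and passed in 14 (log2 fold change −0.60 to −0.24, adjusted p 0.000605 to 0.0854). It did not pass without scaling or in limma, which also ran without TMM factors. Members called higher numbered 0 with TMM, 1 with TMMwsp, 6 without scaling and in both limma fits, 3 at a mean FPKM of at least 5, where 6672 genes were tested, and 0 to 1 with a mouse left out. Members called lower numbered 1, and 0 without scaling and in both limma fits. Of all genes, 1561 were higher and 1664 lower. Without scaling these numbers were 3525 and 696, in limma 3031 and 637 at a pseudocount of 1 and 3061 and 626 at 0.1, and at a mean FPKM of at least 5 they were 750 and 845 (1595 in all). With a mouse left out, from 982 to 1847 were higher, from 949 to 1666 lower and from 1931 to 3510 called in all, the lowest without A473. List genes higher numbered 4, and 14 without scaling, 12 and 13 in limma at pseudocounts of 1 and 0.1, and 1 at a mean FPKM of at least 5. List genes lower numbered 13, and 3 without scaling and in both limma fits, 7 at a mean FPKM of at least 5, and 6 to 16 with a mouse left out.

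Signs turned for genes that did not pass. Without scaling, in limma at 1 and in limma at 0.1, *Mtor* was at 0.072, 0.057 and 0.061, *Lamtor4* at 0.060, 0.062 and 0.066, *Akt1s1* at 0.21, 0.20 and 0.21, *Flcn* at 0.063, 0.069 and 0.078, and *Eif4ebp1* at 0.072, 0.074 and 0.078. *Akt1s1* was also at 0.012 with TMMwsp and 0.054 at a mean FPKM of at least 5, and *Rictor* at −0.010 without a filter. With a mouse left out, *Akt1s1* ranged from −0.11 to 0.085, *Rictor* from −0.091 to 0.12 and *Flcn* from −0.28 to 0.020. Apart from scaling and the number of genes tested, the cause was not tested. The Ragulator ratio differed by 0.28 to 0.49 under its alternatives. With the length offset, *Rptor* was at −0.45 (edgeR adjusted p = 0.0138). No paired analysis was possible because the mouse numbers are not shared between genotypes. The filter of 0.5 FPKM kept *Rragb*, at 2 to 9 counts and at most 0.42 FPKM per liver, from being tested.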
